A study of Arabidopsis thaliana with 32 samples.

Results

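The cyclins of classes A, B and D in the Arabidopsis genome were followed through laser-captured endosperm and embryo. The family was taken by gene identifier from the annotated cyclins of these classes. It holds 30 genes, 10 in each class, of the 33602 genes in the count tables. All 30 were found in the tables, and 29 had reads. CYCD7;1 (AT5G02110), which in Arabidopsis leaves acts in the last division of the stomatal lineage, had 0 reads in all 32 libraries. The series holds seeds of the accessions Col (Col-0) and C24 and of lines made from them with swapped cytoplasm, called CNS lines. Each of 16 groups has 2 libraries. In the standard crosses the groups are Col x Col, Col x C24, C24 x Col and C24 x C24, each as endosperm and embryo, with the seed parent named first. Among the CNS lines, C24(Col) pairs C24 cytoplasm with the Col nucleus and Col(C24) pairs Col cytoplasm with that of C24. Their groups are selfed C24(Col), selfed Col(C24), crosses with Col(C24) as pollen parent, here called xCol(C24), and Col(C24) x Col. The xCol(C24) group is uneven by its labels, since replicate 1 is Col x Col(C24) and replicate 2 is C24(Col) x Col(C24). All plants came from controlled crosses grown under one light regime, and no source used here gives the age of the seeds.

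Cyclins bind and steer the cyclin-dependent kinases that drive the cell cycle. D-type cyclins act with CDKA;1 on the retinoblastoma protein RBR1 in G1 and tie division to hormones and sugar. A-type cyclins act from S phase to early mitosis, and B-type cyclins act at the entry into mitosis and are destroyed through the anaphase-promoting complex. The Arabidopsis endosperm first divides its nuclei without walls, as a syncytium, and later forms cells, while the embryo divides with cytokinesis from the zygote onward.

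Many cyclins of G2 and mitosis carry MSA elements, short promoter motifs read by MYB3R factors, with the core AACGG. The core was searched on both strands of the 300 bases before the annotated start of every protein-coding gene. At least 2 cores were found in 4.53% of 27443 genes, and at least 1 in 23.4%. Among the cyclins, 6 of 10 B-type, 4 of 10 A-type and 0 of 10 D-type genes had at least 2. The windows of the B1 genes with cores are shown, together with that of CYCA2;4, whose window holds none and which is set beside them in the tissue comparison. They are from RefSeq on build TAIR10.1, read 5′ to 3′ in the direction of the gene, and capitals mark the core or its reverse complement. The B1 windows are, in the order printed, chr4:17624309-17624608, chr5:1861704-1862003 and chr3:3627274-3627573, all on the minus strand, and the A2 window is chr1:30213405-30213704 on the plus strand.
CYCB1;1: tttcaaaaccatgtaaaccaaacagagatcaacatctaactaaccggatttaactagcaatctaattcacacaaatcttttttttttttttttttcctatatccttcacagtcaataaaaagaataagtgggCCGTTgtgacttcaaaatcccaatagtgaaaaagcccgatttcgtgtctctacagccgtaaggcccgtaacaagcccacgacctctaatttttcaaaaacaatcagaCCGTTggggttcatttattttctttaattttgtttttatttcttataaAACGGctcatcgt
CYCB1;2: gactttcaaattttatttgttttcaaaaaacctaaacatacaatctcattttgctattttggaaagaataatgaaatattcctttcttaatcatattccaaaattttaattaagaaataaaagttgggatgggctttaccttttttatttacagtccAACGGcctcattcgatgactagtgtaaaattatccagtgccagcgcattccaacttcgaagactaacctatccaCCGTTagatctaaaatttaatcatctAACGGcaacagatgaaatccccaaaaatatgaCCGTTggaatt
CYCB1;3: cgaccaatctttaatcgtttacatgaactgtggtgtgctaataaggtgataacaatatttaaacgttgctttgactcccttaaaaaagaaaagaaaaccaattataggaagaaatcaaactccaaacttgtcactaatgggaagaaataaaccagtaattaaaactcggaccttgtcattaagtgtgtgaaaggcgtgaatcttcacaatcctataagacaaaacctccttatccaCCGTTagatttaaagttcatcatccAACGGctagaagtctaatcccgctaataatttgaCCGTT
CYCA2;4: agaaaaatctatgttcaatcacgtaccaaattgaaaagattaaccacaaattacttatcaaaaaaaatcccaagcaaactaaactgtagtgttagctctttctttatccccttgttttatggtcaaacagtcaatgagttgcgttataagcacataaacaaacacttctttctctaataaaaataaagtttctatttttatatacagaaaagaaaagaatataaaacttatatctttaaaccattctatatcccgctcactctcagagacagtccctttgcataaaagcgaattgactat

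The first printed window holds 3 cores, whose first bases stand 168, 61 and 13 bases before the start. The next holds 4, at 143, 69, 43 and 11 bases, and the third holds 3, at 64, 39 and 5 bases. Of the 4 B2 genes 3 also hold 3 cores each and the remaining one holds 1, while the other B1 genes and the B3 gene hold 0. Among A-type genes the 2 A1 genes, 1 of the A2 genes and 1 of the A3 genes hold 2 cores each. In the D class a core was found before 1 gene, the cytokinin-responsive CYCD3;1. Its window overlaps the gene AT4G34150, which stands on the same strand. The E2F motif, which the factors of the G1 to S transition read, was searched as TTTCCCGC, TTTGGCGC, TTTCGCGC or TTTGCCGC on both strands. It stood before 2 of the 30 genes, CYCA1;2 and CYCD3;3, against 1.57% of all protein-coding genes. Matches may overlap each other, and a match is a description of these letters, not of a bound site.

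**Figure D1:**
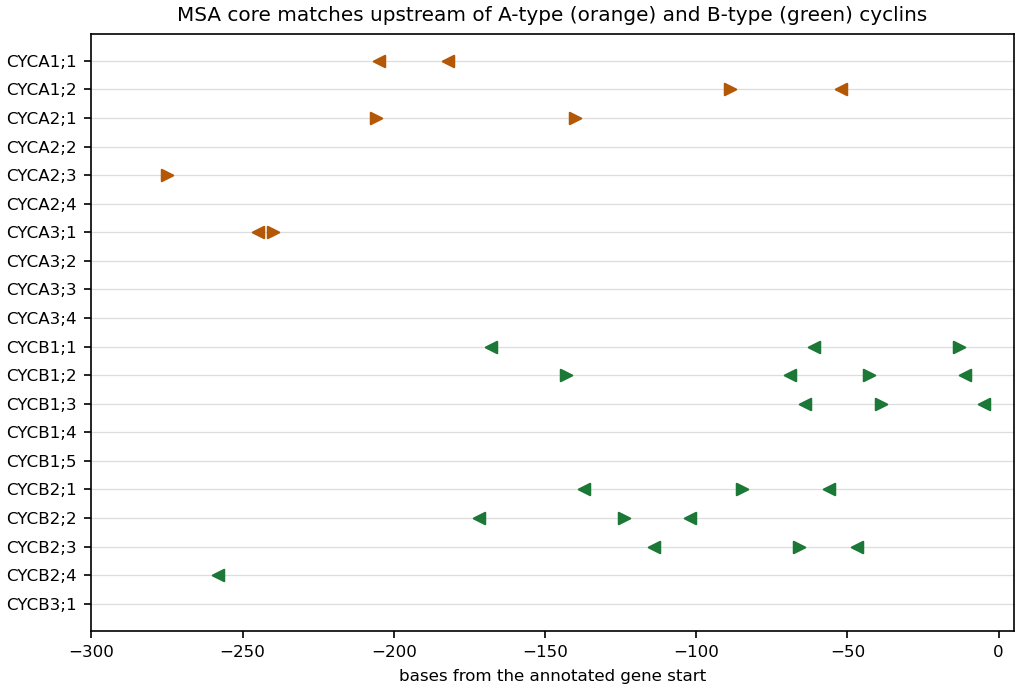
Positions of the MSA core (AACGG, either strand) in the 300 bases before the annotated start of the 10 A-type and 10 B-type cyclins. The x axis is the distance from the start in bases, each row is a gene, and each triangle is 1 core, pointing along its strand. In the 3 B1 rows with cores the last core begins 13, 11 and 5 bases before the start.

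Totals ran from 8.64 to 36.2 M counts in endosperm and from 14.6 to 54.3 M in embryo. Whether both libraries of a group were taken from different plants is not in the labels, so p-values measure the spread between these libraries, which may be technical. Levels are given as CPM, the count of a gene relative to the total of its library, after the TMM scaling of edgeR. The summed level of 8 embryo markers ran from 32.1 to 78.6 CPM in endosperm, against 572 to 740 CPM in embryo. That of 7 endosperm markers ran from 505 to 867 CPM in endosperm, against 28.9 to 87.7 CPM in embryo. That of 6 seed coat markers ran from 70.9 to 335 CPM in endosperm, against 0.980 to 25.2 CPM in embryo. In endosperm the embryo markers PIN4 and WOX2 were at 0 in 8 of 16 libraries and STM, PLT1 and PLT2 in 7. The embryo markers SCR, ATML1 and PDF2 had reads in all 16, at 4.96 to 17.1, 13.6 to 39.4 and 4.62 to 32.1 CPM. These marker levels move with tissue as the cyclins do, and their part in the cyclin differences was not tested. AGL62, an endosperm regulator counted among the endosperm markers, had only 0 to 1.38 CPM in endosperm.

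The first comparison set endosperm against embryo. The D-type cyclins CYCD3;1 and CYCD3;2 and the A2 cyclins CYCA2;3 and CYCA2;4 were the members furthest below their embryo level, while CYCA3;4 and CYCA2;1 were higher in endosperm. In the standard crosses 24 of 29 tested members differed at an adjusted p under 0.05 (edgeR quasi-likelihood test, Benjamini-Hochberg over all genes), 5 higher and 19 lower in endosperm. The same call was made for 78.8% of all 20235 genes tested, 39.1% higher and 39.6% lower, so the share of members called is near that of any gene. The rarely read CYCA3;3 and CYCB1;5 passed the count filter through endosperm alone, where they are high, so their calls follow from the filter and are not read as tests. Without them 22 of 27 members were called in the standard crosses, 3 higher and 19 lower, and 19 of 27 in the CNS lines, 5 higher and 14 lower. In the CNS lines 21 of 29 were called, 7 higher and 14 lower, against 68.7% of all genes, 34.8% higher and 33.9% lower. The median difference of the members was -0.47 on the log2 scale in the standard crosses and -0.59 in the CNS lines, beside 0.005 and 0.05 over all genes tested, and -0.96 and -0.64 without the 2 genes that passed through endosperm alone. Between the sets 14 members were called lower in both, 4 higher in both, 2 of them the genes that passed through endosperm alone, and 0 in opposite directions. The share of all genes called alike in both sets was not counted, so this agreement is not read as particular to cyclins. No member's tissue difference differed between the sets at an adjusted p under 0.05 (0 of 29 by edgeR and 0 by DESeq2), where edgeR called 0% of all genes. At an unadjusted p under 0.05 it was 1 of 29 members, against 6.44% of all genes. In captured tissue, fewer cells of a type and less RNA per cell cannot be told apart.

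Summed over its 10 genes, the D class stood at 217 ± 57.1 CPM in endosperm, against 522 ± 75.6 CPM in embryo (SD, n = 16 libraries each, both sets). The highest endosperm library had 317 CPM and the lowest embryo library 423 CPM, so the tissues did not overlap. The A class reached 173 ± 22.8 CPM in endosperm, against 274 ± 27.6 CPM in embryo, again without overlap. The B class reached 358 ± 97.5 CPM in endosperm, against 514 ± 45.8 CPM in embryo, and here the highest endosperm library, at 489.9 CPM, lay above the lowest embryo library, at 459.9 CPM. In the standard crosses the D class had 217 ± 50.9 CPM in endosperm, against 554 ± 80.1 CPM in embryo (SD, n = 8 libraries each). Its level in the CNS lines was 216 ± 66.2 CPM in endosperm, against 491 ± 59.2 CPM in embryo. The B class had 335 ± 73.9 CPM in endosperm and 487 ± 15.3 CPM in embryo of the standard crosses, and 380.2 ± 117 CPM in endosperm and 540.0 ± 51.6 CPM in embryo of the CNS lines. The lowest B-class sum was that of Col(C24) x Col endosperm replicate 2, at 176 CPM.

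**Figure D2:**
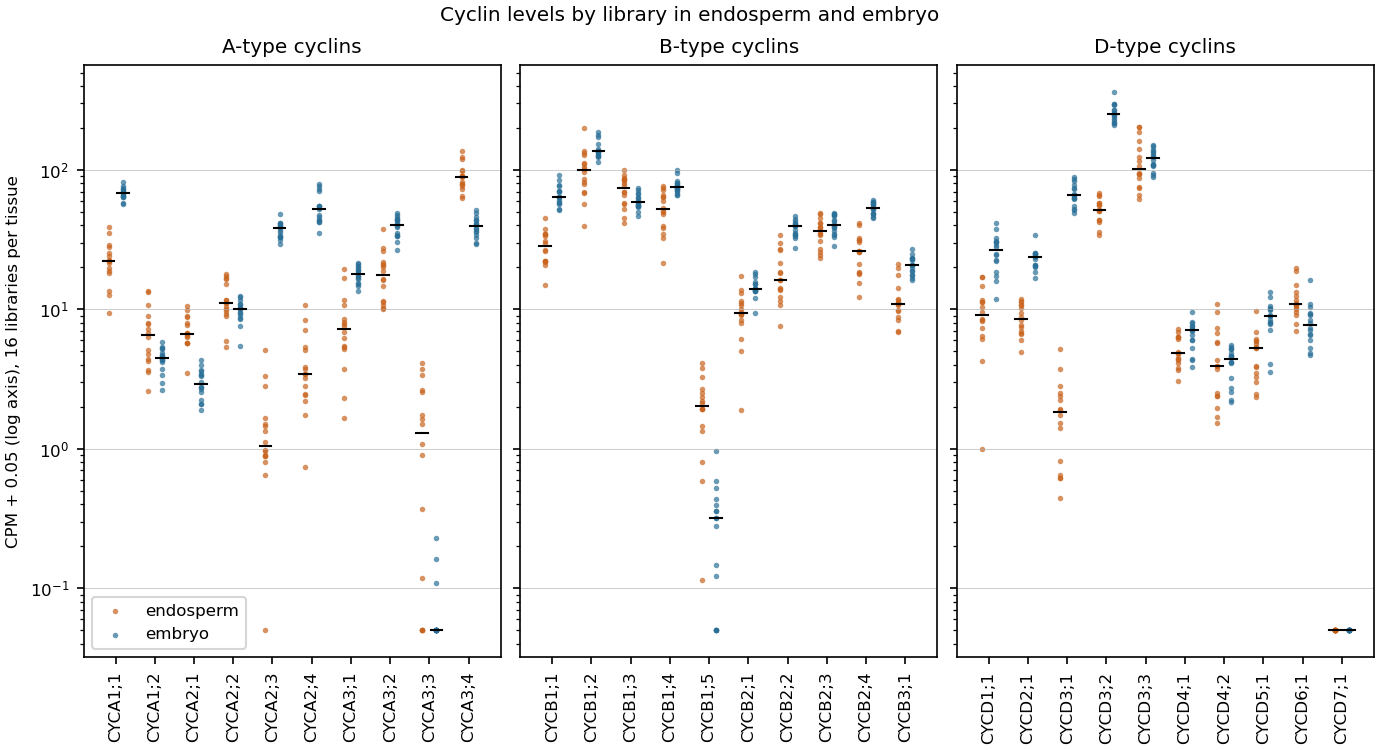
TMM-scaled level (CPM + 0.05, log axis) of each cyclin in every library, with endosperm left of embryo and genes grouped by class. Each point is 1 library and each bar the median of 16. Among the A-type genes 2 of the A2 group lie far lower in all endosperm libraries, and CYCA3;4 lies higher in all of them.

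Per kilobase of exon, the leading cyclins were partly the same in the tissues. In endosperm the mean level was highest for CYCD3;3 (AT3G50070), at 82.3 CPM per kb, followed by CYCA3;4 at 58.6, CYCB1;2 at 54.9 and CYCB1;3 at 43.5 CPM per kb. In embryo it was highest for CYCD3;2, at 154 CPM per kb, against 30.9 CPM per kb of the same gene in endosperm. CYCD3;3 came next in embryo, at 83.4 CPM per kb. It was followed by 2 B1 genes, at 77.4 CPM per kb for CYCB1;2 and 42.3 for CYCB1;4.

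Among the D-type cyclins, 6 of 9 tested members fell and 0 rose in standard endosperm, and 4 fell and 1 rose in CNS endosperm. Of all genes tested 39.6% fell and 39.1% rose in the standard crosses, and 33.9% fell and 34.8% rose in the CNS lines. CYCD3;1 (AT4G34160, chromosome 4, 16357421 to 16359565), a cytokinin-responsive cyclin that drives G1 exit, had a lowest, median and highest level of 0.393, 1.78 and 5.17 CPM in the 16 endosperm libraries. In the 16 embryo libraries it had 48.9, 65.9 and 88.5 CPM. The ranges lie far apart. It was lower by a log2 difference of -5.69 (SE 0.306, adjusted p 7.99e-10, edgeR) in the standard crosses and -4.90 (SE 0.254, adjusted p 2.84e-08) in the CNS lines.

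CYCD3;2 (AT5G67260, chromosome 5, 26836139 to 26839597), also of the cytokinin-responsive D3 group, had 34.2, 51.3 and 68.7 CPM as lowest, median and highest in endosperm. Its embryo levels were 210, 253 and 362 CPM. All endosperm libraries were below all embryo libraries, with log2 differences of -2.36 (SE 0.101, adjusted p 9.86e-11, edgeR) and -2.12 (SE 0.154, adjusted p 2.73e-07) in the standard and CNS fits. CYCD3;3, the leader of the endosperm per length, had 61.6, 101 and 204 CPM in endosperm and 89.1, 121 and 150 CPM in embryo. Its ranges overlapped, and neither set gave a call, with log2 differences of -0.02 (SE 0.128) and 0.05 (SE 0.210). The 3 D3 genes therefore stood at tissue differences from near 0 to below -4 log2 units, although no test compared the genes with each other.

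CYCD2;1 (AT2G22490, chromosome 2, 9553797 to 9556167), a G1 cyclin that responds to sugar, had 4.92, 8.54 and 11.8 CPM in endosperm. Embryo libraries had 16.6, 23.8 and 33.9 CPM. The tissues did not overlap, and it fell in all 8 crosses tested one by one, with pooled log2 differences of -1.51 (SE 0.131, adjusted p 1.06e-07, edgeR) in the standard crosses and -1.22 (SE 0.151, adjusted p 1.93e-05) in the CNS lines. CYCD1;1 (AT1G70210), which takes part in restarting division in germinating roots, had 0.947, 9.03 and 17.1 CPM in endosperm and 11.8, 26.6 and 41.7 CPM in embryo. Its ranges overlapped, and it fell by 1.42 (SE 0.176, adjusted p 4.42e-06, edgeR) and 1.43 (SE 0.446, adjusted p 0.0131) on the log2 scale. CYCD5;1 (AT4G37630) fell in the standard crosses, with a log2 difference of -0.96 (adjusted p 0.000308, edgeR). In the CNS lines its difference of -0.64 had an adjusted p of 0.0651, and 0.00637 with the replicate number as a block. CYCD4;1 (AT5G65420) fell in the standard crosses alone, by 0.47 (adjusted p 0.0347, edgeR), a call lost in 8 of the 16 fits that left out 1 library.

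CYCD6;1 (AT4G03270), a target of SHORT-ROOT and SCARECROW in formative divisions of the root, was the D-type cyclin that rose, in the CNS lines. It had 6.95, 10.8 and 19.6 CPM in endosperm and 4.64, 7.63 and 16.3 CPM in embryo over both sets. The ranges overlapped widely, with log2 differences of 0.86 (SE 0.207, adjusted p 0.0027, edgeR) in the CNS lines and 0.43 (SE 0.220, adjusted p 0.0890) in the standard crosses. CYCD4;2 (AT5G10440) was not called in either set. It had 1.49, 3.88 and 10.8 CPM in endosperm and 2.12, 4.36 and 5.52 CPM in embryo.

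Among the A-type cyclins other than CYCA3;3, 5 of 9 fell and 2 rose in standard endosperm, and 5 fell and 4 rose in CNS endosperm. Of all genes tested 39.6% fell and 39.1% rose in the standard crosses, and 33.9% fell and 34.8% rose in the CNS lines. The A2 group, whose members limit the onset of endoreduplication in leaves and help form vascular tissue, was split. CYCA2;3 (AT1G15570, chromosome 1, 5361865 to 5365559) had 0, 0.997 and 5.10 CPM as lowest, median and highest in endosperm. Embryo libraries had 29.2, 38.2 and 47.9 CPM. The summed reads gave an endosperm to embryo ratio of 0.0397 (exact 95% interval 0.0364 to 0.0432, counting error only), and the log2 differences were -4.96 (SE 0.259, adjusted p 6.17e-10, edgeR) and -4.49 (SE 0.543, adjusted p 1.52e-05). With 1 library left out the CNS value ran from -6.75, without selfed C24(Col) endosperm replicate 1, to -4.25. CYCA2;4 (AT1G80370, chromosome 1, 30213705 to 30217102) had 0.691, 3.37 and 10.7 CPM in endosperm. Its embryo levels were 35.4, 52.7 and 78.8 CPM. No endosperm library reached the lowest embryo library, and the log2 differences were -3.78 (SE 0.111, adjusted p 1.03e-11, edgeR) and -3.74 (SE 0.381, adjusted p 3.76e-06).

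Neither of the other A2 genes was called lower, and CYCA2;1 was called higher in both sets. CYCA2;1 (AT5G25380) had 3.44, 6.66 and 10.5 CPM in endosperm and 1.85, 2.85 and 4.26 CPM in embryo, with some overlap. It rose by a log2 difference of 0.98 (SE 0.218, adjusted p 0.000931, edgeR) in the standard crosses and 1.66 (SE 0.215, adjusted p 2.62e-05) in the CNS lines. CYCA2;2 (AT5G11300) had 5.33, 11.1 and 17.9 CPM in endosperm and 5.37, 10.1 and 12.5 CPM in embryo. Its log2 difference was 0.09 in the standard crosses, and it rose by 0.47 (adjusted p 0.0406, edgeR) in the CNS lines. That call was lost in 11 of the 16 fits that left out 1 library.

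The A3 cyclins, which act from late G1 into S phase, include 3 genes that stand in tandem on chromosome 1 between positions 17300691 and 17308848 (TAIR10.1). CYCA3;2 (AT1G47210) had 9.99, 17.6 and 37.7 CPM in endosperm and 26.5, 40.5 and 49.4 CPM in embryo. It fell by 1.20 (SE 0.222, adjusted p 0.000195, edgeR) and 0.90 (SE 0.214, adjusted p 0.00258) on the log2 scale. Its neighbour CYCA3;4 (AT1G47230) had 62.9, 89.1 and 137 CPM in endosperm. Embryo libraries had 29.4, 39.4 and 51.6 CPM. Every endosperm library lay above every embryo library, and this gene was the only member called higher in each of the 8 crosses, with pooled log2 differences of 1.31 (SE 0.119, adjusted p 1.8e-07, edgeR) and 1.24 (SE 0.114, adjusted p 1.68e-06).

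CYCA3;3 (AT1G47220), which lies between them and is known as a meiotic cyclin, was rare here. It had reads in 12 of 16 endosperm libraries and 3 of 16 embryo libraries, with up to 4.09 CPM in endosperm and up to 0.180 CPM in embryo. Its reads summed to 251 in endosperm and 3 in embryo of the standard crosses, a scaled ratio of 109 (exact 95% interval 36.9 to 533). In the CNS lines they summed to 229 in endosperm and 6 in embryo, a ratio of 48.1 (21.8 to 133). It reached the CPM that the filter asks for in 6 of 8 endosperm and 0 of 8 embryo libraries of the standard crosses, and in 4 of 8 endosperm and 0 of 8 embryo libraries of the CNS lines, so no p is given.

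CYCA1;1 (AT1G44110, chromosome 1, 16774765 to 16777352) had 9.31, 22.1 and 39.0 CPM in endosperm. Its embryo levels were 57.0, 68.8 and 81.5 CPM. The tissues did not overlap, and the log2 differences were -1.57 (SE 0.112, adjusted p 1.42e-08, edgeR) and -1.55 (SE 0.231, adjusted p 8.39e-05). CYCA1;2 (AT1G77390), known as TAM and needed for the progress of meiosis in Arabidopsis, had 2.55, 6.48 and 13.4 CPM in endosperm and 2.58, 4.44 and 5.78 CPM in embryo. It rose in the CNS lines by 0.71 (SE 0.178, adjusted p 0.00381, edgeR) and had a difference of 0.68 (SE 0.322, adjusted p 0.0656) in the standard crosses. CYCA3;1 (AT5G43080) had 1.62, 7.21 and 19.4 CPM in endosperm and 13.6, 17.9 and 21.5 CPM in embryo. It fell by 1.18 and 1.13 in the standard and CNS fits (edgeR adjusted p 0.000627 and 0.0186).

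Among the B-type cyclins other than CYCB1;5, 8 of 9 fell and 1 rose in standard endosperm, and 5 fell and 0 rose in CNS endosperm. Of all genes tested 39.6% fell and 39.1% rose in the standard crosses, and 33.9% fell and 34.8% rose in the CNS lines. The falls of the B-type cyclins were smaller than those of the lowest D3 and A2 genes. CYCB1;1 (AT4G37490, chromosome 4, 17621886 to 17624308), whose reporter marks cells in G2 and mitosis, had 14.8, 28.3 and 45.3 CPM in endosperm. Embryo libraries had 51.6, 64.3 and 91.7 CPM. The tissues did not overlap, and it fell by 1.11 (SE 0.113, adjusted p 6.01e-07, edgeR) and 1.24 (SE 0.178, adjusted p 6.19e-05).

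Its B1 relatives differed from it in their values. CYCB1;2 (AT5G06150) had 39.8, 99.2 and 199 CPM in endosperm and 113, 136 and 186 CPM in embryo, and fell by 0.47 in the standard crosses (adjusted p 0.00225, edgeR), with -0.44 and an adjusted p of 0.101 in the CNS lines. CYCB1;3 (AT3G11520) had 41.4, 73.8 and 101 CPM in endosperm and 46.9, 58.7 and 74.2 CPM in embryo. It rose by 0.35 in the standard crosses (adjusted p 0.0104, edgeR, and 0.0625 with DESeq2), with 0.30 and an adjusted p of 0.126 in the CNS lines. CYCB1;4 (AT2G26760) had 21.3, 52.1 and 76.9 CPM in endosperm and 65.6, 75.2 and 100.5 CPM in embryo. It fell by 0.43 and 0.56 (adjusted p 0.00158 and 0.0331, edgeR), and its CNS call was lost in 7 of the 16 fits without 1 library. The 3 printed B1 windows, each with at least 3 MSA cores, thus belong to genes that fell in both sets, fell in 1 set and rose in 1 set. The A2 gene printed beside them, with no core, had a larger fall than these, but it is among the members furthest below their embryo level. Genes without a core went both ways, since CYCA3;4 rose in both sets and CYCB1;4 fell in both.

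CYCB1;5 (AT1G34460) was rare, with 0.0650, 1.99 and 4.09 CPM as lowest, median and highest in endosperm and 0, 0.267 and 0.917 CPM in embryo. Its reads summed to 214 in endosperm and 59 in embryo of the standard crosses, a scaled ratio of 4.73 (exact 95% interval 3.53 to 6.42, counting error only). In the CNS lines they summed to 557 in endosperm and 51 in embryo, a ratio of 13.8 (10.3 to 18.7). In embryo 1 library of each set reached the CPM that the filter asks for in 2, so here too no p is given. It shares sequence with CYCB1;2 and with AT1G09185. Of the 50-base stretches in the exons of the pair of cyclins, 84.4% of its own and 88.7% of those of its relative stand at only 1 place in the genome, so its reads are uncertain.

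The B2 and B3 cyclins were mostly lower. CYCB2;4 (AT1G76310) had 12.2, 26.0 and 41.4 CPM in endosperm and 45.5, 53.6 and 60.4 CPM in embryo, without overlap, and fell by 1.19 and 0.86 (adjusted p 4.47e-07 and 0.00042, edgeR). CYCB2;2 (AT4G35620) had 7.57, 16.2 and 34.2 CPM in endosperm and 27.6, 39.5 and 46.8 CPM in embryo, and fell by 1.05 and 0.99. CYCB3;1 (AT1G16330) had 6.85, 10.95 and 21.3 CPM in endosperm and 16.3, 20.8 and 26.9 CPM in embryo, and fell by 0.97 and 0.59. CYCB2;1 (AT2G17620) fell by 0.45 in the standard crosses, with a difference of -0.65 in the CNS lines that was not called. CYCB2;3 (AT1G20610) fell by 0.30 in the standard crosses and had 0.06 in the CNS lines. Its call was lost in 7 of the 16 fits that left out 1 library, and it shares sequence with a gene listed as AT1G20590, with 83.01% of its 50-base stretches at only 1 place.

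Of the 28 members with a mean of at least 1 CPM, 14 had tissues that did not overlap in the standard crosses, 13 of them with endosperm below, where 51.5% of all such genes had no overlap. In the CNS lines it was 11 members, 8 with endosperm below, against 46.6% of genes. Over both sets together it was 9 members, 8 with endosperm below, against 36.5% of genes. These shares of all genes hold either direction. The share with endosperm below was not counted, so the direction of the members without overlap is not read as particular to cyclins. Called cross by cross, 6 members were lower in all 8, namely CYCB1;1, CYCD2;1, CYCA2;3, CYCA2;4, CYCD3;1 and CYCD3;2. Among the 20162 genes tested in both sets 12.7% were called lower in all 8. Called higher in all 8 was 1 member, against 14.4% of those genes. Without regard to the test, 16 members were lower in all 8, against 35% of genes, and 6 were higher, against 34.9%. Of these 6, 2 are the genes that passed the filter through endosperm alone. The 10 genes with at least 2 MSA cores had 2 higher and 7 lower in the standard crosses with a median log2 difference of -0.46, and the other 19, which include the 2 that passed the filter through endosperm alone, had 3 higher and 12 lower with a median of -0.96. In the CNS lines the medians were -0.55 and -0.59.

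The cyclins also spread more between replicates in endosperm. Over the 28 members the median SD between the 2 libraries of a group, on the scale of log2(CPM + 0.5), was 0.488 in endosperm and 0.221 in embryo. It was larger in endosperm for 23 of 28 members. Over 17867 genes the medians were 0.346 in endosperm and 0.252 in embryo, and 71.0% were larger in endosperm. The smaller endosperm totals, with a median of 25.5 M counts against 34.0 M in embryo, go with this, and their part in it was not tested.

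The partners of the cyclins did not share one direction. Of 32 genes of the cell cycle machinery, 12 rose, 12 fell and 8 were not called in standard endosperm, and in the CNS lines 14 rose, 8 fell and 10 were not called. Over all genes tested 39.1% rose and 39.6% fell in the standard crosses, and 34.8% and 33.9% in the CNS lines. The standard counts are thus near those of any gene, and the counts by role below are read beside these shares. Among 7 kinase and CKS genes, 2 rose and 1 fell in the standard crosses, and 4 rose and 1 fell in the CNS lines. CDKA;1, the kinase bound by D-type cyclins, had 74.4 to 86.8 CPM in standard endosperm and 38.8 to 54.6 CPM in standard embryo. It rose by 0.86 and 1.02 (adjusted p 3.23e-06 and 7.99e-06, edgeR). CDKB1;1, a mitotic plant kinase, rose by 0.90 and 0.97. Of the A2 cyclins, its known partners, 2 fell in both sets, CYCA2;1 rose in both and CYCA2;2 rose in the CNS lines.

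Of 9 E2F and retinoblastoma genes 6 rose and 2 fell in each set. The atypical E2F factors DEL2 and DEL3 were furthest, at 2.48 and 1.48 in the standard crosses and 2.27 and 1.42 in the CNS lines. Among 5 MYB3R genes, whose products bind the MSA core, MYB3R2 had 33.2 to 61.3 CPM in standard endosperm and 0.941 to 2.83 CPM in standard embryo. It rose by 4.96 (SE 0.184, adjusted p 3.4e-11, edgeR) and 5.31 (SE 0.319, adjusted p 7e-08). MYB3R4, an activator of mitotic genes, rose by 0.49 and 0.81 (adjusted p 0.00027 and 0.000474, edgeR). MYB3R1 and MYB3R5 fell by 0.45 and 0.70 in the standard crosses (edgeR adjusted p 0.00189 and 0.00187), with uncalled differences of -0.12 and -0.33 in the CNS lines. MYB3R3 was not called in either set.

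Among 5 activators of the anaphase-promoting complex, which marks mitotic cyclins for destruction, 1 rose and 3 fell in the standard crosses, and 1 rose and 2 fell in the CNS lines. CCS52B had 9.93 to 28.0 CPM in standard endosperm and 71.1 to 117 CPM in standard embryo, and fell by 2.42 and 2.55. CCS52A1, which promotes endoreduplication, had 4.31 to 28.6 CPM in standard endosperm and 2.08 to 4.41 CPM in standard embryo, and rose by 2.16 and 2.44. Of 6 genes of mitosis and cytokinesis, 1 rose and 4 fell in the standard crosses, and 1 rose and 3 fell in the CNS lines. The kinase gene AUR2 fell by 1.15 and 0.96, PLEIADE, which encodes a microtubule bundling protein of the division plane, fell by 0.97 and 0.86, and KNOLLE, the cytokinesis syntaxin, rose by 0.96 and 0.89.

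The second comparison set Col against C24 nuclei in selfed seeds. In each set the cytoplasm differed along with the nucleus. The Col nucleus stood with Col cytoplasm in the standard crosses and with C24 cytoplasm in C24(Col). Within either set alone the parts of nucleus and cytoplasm cannot be told apart. In each of its 4 fits 1 cyclin was called. In endosperm it was CYCA2;2 among 29 members tested, against 7.96% of 21210 genes. Col x Col endosperm had 5.87 and 5.33 CPM of its reads and C24 x C24 endosperm had 15.1 and 16.4 CPM, while the 4 hybrid libraries had 10.1 to 11.1 CPM. The hybrids lay between the selfed accessions, and Col x Col was lower by a log2 difference of -1.48 (SE 0.360, adjusted p 0.0201, edgeR). With any 1 of the 4 compared libraries left out the adjusted p was 0.0823 to 0.149. Between selfed C24(Col) and selfed Col(C24) endosperm the difference was -0.21 (adjusted p 0.757, edgeR), where C24(Col) had 16.6 and 8.92 CPM and Col(C24) had 11.5 and 17.4 CPM. In embryo it was 11.6 and 5.37 CPM in Col x Col and 10.2 and 9.09 CPM in C24 x C24.

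Between the selfed CNS lines the call in endosperm was CYCD4;2, a D-type cyclin that in Arabidopsis acts in the stomatal lineage of the hypocotyl, against 7.90% of all genes. Selfed C24(Col) endosperm had 5.79 and 9.59 CPM and selfed Col(C24) endosperm had 2.34 and 1.63 CPM. The groups did not overlap, with a log2 difference of 1.93 (SE 0.543, adjusted p 0.0437, edgeR). In the standard crosses Col x Col had 4.27 and 7.30 CPM and C24 x C24 had 1.49 and 1.91 CPM, a difference of 1.77 (SE 0.559) with an adjusted p of 0.0686. In both sets the Col nucleus thus went with the higher level, though the call held in 1 of them only and was lost in 3 of 4 fits that left out a library. Reads of both accessions were processed with TAIR10, taken as Col, and the part of this in the levels was not tested. In embryo the gene stood at 4.10 to 5.52 CPM in the selfed accessions.

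In embryo the call in each set was CYCA2;4, among 28 members tested, against 4.04% of all 19942 genes in the standard crosses and 4.51% in the CNS lines. Col x Col embryo had 73.3 and 78.8 CPM and C24 x C24 embryo had 43.5 and 42.2 CPM. Selfed C24(Col) embryo, with a Col nucleus, had 70.2 and 76.4 CPM, and selfed Col(C24) embryo had 35.4 and 43.8 CPM. All 8 hybrid embryo libraries lay at 42.6 to 54.8 CPM, below each of the 4 libraries with only Col nuclear genomes. The log2 difference was 0.77 (SE 0.172, adjusted p 0.0232, edgeR) between the accessions and 0.83 (SE 0.170, adjusted p 0.0129) between the CNS lines. Without any 1 of the 4 libraries the adjusted p of the accessions was 0.0762 to 0.170, and 2 of 4 such fits lost the CNS call. Its endosperm levels were 8.32 and 7.07 CPM in Col x Col and 3.79 and 2.40 CPM in C24 x C24, and were not called.

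The other members did not pass the test between accessions. In endosperm their log2 differences ran from -4.29 for CYCA3;3, which had 0.320 and 0 CPM in Col x Col and 2.57 and 4.09 CPM in C24 x C24 (adjusted p 0.279, edgeR), to 1.77 for CYCD4;2. Whether the tissue difference itself differed between selfed Col and selfed C24 was tested as an interaction, which called 0 of 29 members by edgeR at an adjusted p under 0.05, against 1.77% of all genes, and 2 of 29 by DESeq2, against 4.96%. At an unadjusted p under 0.05 it was 7 of 29 members by edgeR, against 15.3% of all genes. The smallest edgeR p among members was that of CYCD3;2, at -1.09 (SE 0.273, adjusted p 0.0638). Its adjusted p was 0.00418 with DESeq2, 0.0386 with library totals and 0.0133 with the replicate block, and 0.0709 without a filter and 0.071 to 0.230 with 1 library left out by edgeR.

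**Figure D3:**
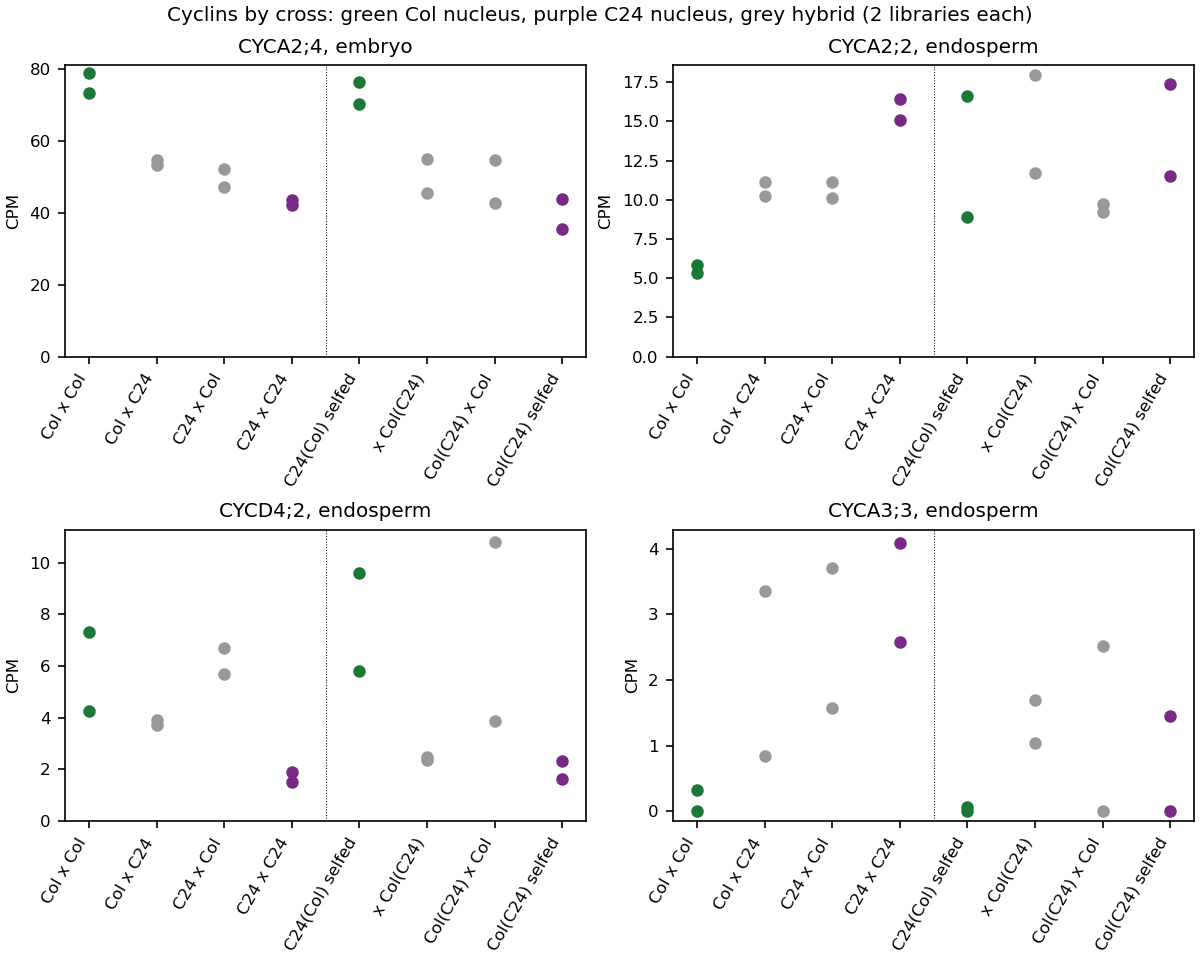
TMM-scaled level (CPM) of CYCA2;4 in embryo and of 3 further cyclins in endosperm, by cross, with each library as a point coloured by its nuclear genomes. CYCA2;4 lies at 70.2 to 78.8 CPM in the 4 embryo libraries with Col nuclear genomes only and at 35.4 to 54.8 CPM in the other 12.

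The third comparison set the directions of a hybrid cross against each other, Col x C24 against C24 x Col in the standard seeds and xCol(C24) against Col(C24) x Col in the CNS lines. Replicate 2 of xCol(C24) is C24(Col) x Col(C24), with C24 cytoplasm, so only replicate 1 is the reciprocal of Col(C24) x Col. The CNS contrast is thus not one of cross direction alone. No cyclin was called in any of the 4 fits by edgeR or DESeq2 at an adjusted p under 0.05. Over all genes the share called by edgeR was 0.222% in standard endosperm, 0.325% in CNS endosperm, 0.00501% in standard embryo and 0% in CNS embryo. At an unadjusted p under 0.05 there were 0 of 29 members in standard endosperm, against 7.85% of all genes, and 2 of 29 in CNS endosperm, against 11.9%. In embryo there was 1 of 28 in each set, against 1.6% in the standard crosses and 3.31% in the CNS lines. CYCD4;2 was the member with the smallest p in CNS endosperm. It had 2.47 and 2.34 CPM in xCol(C24) and 3.86 and 10.8 CPM in Col(C24) x Col, a log2 difference of -1.61 (SE 0.538, adjusted p 0.241, edgeR). In embryo the smallest p was that of CYCD3;3 in either set, with differences of 0.37 and 0.45 and adjusted p-values of 1.00.

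Allele reads, which count reads that carry a Col or C24 variant, gave a further view of the hybrids. Of the 30 cyclins, 24 had at least 10 allele reads in at least 1 of the 16 hybrid libraries, and 6 had none in any, namely CYCA2;3, CYCA3;3, CYCB1;2, CYCD7;1 and the D3 genes other than CYCD3;1. Endosperm holds 2 maternal genomes and 1 paternal genome, so a maternal share of 66.7% is what dosage gives, and 50% in embryo. Seed coat markers were also read in the endosperm libraries, at a sum of 70.9 to 335 CPM, and their part in the maternal shares was not tested. With 10 reads required in each library, 10 members could be tested for a parental difference beyond dosage in standard endosperm, 11 in CNS endosperm, 14 in standard embryo and 15 in CNS embryo. No member was called by edgeR at an adjusted p under 0.05, against 4.42%, 2.53%, 1.04% and 0.0602% of all genes tested. At an unadjusted p under 0.05 it was 1, 2, 0 and 0 members, against 11.6%, 6.78%, 7.55% and 2.66% of all genes. The contrast of Col and C24 alleles called 0 members as well, where it called 13.4%, 7.37%, 17.7% and 8.04% of all genes. Here 0, 1, 1 and 1 members had an unadjusted p under 0.05, against 2135 of 8513, 1698 of 9514, 2646 of 9815 and 2003 of 9960 genes. Over all genes the median log2 difference of Col over C24 reads was 0.13, 0.17, 0.11 and 0.15 in these fits. Reads were processed with TAIR10, whose allele was taken as Col. The part of this reference in the allele shares and in the differences between accessions was not tested.

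The cyclins whose allele shares are given singly were chosen after their values were seen. CYCD2;1 had the lowest maternal share in endosperm among members with 10 reads in every library of a set. In standard endosperm its maternal share was 52.9% and 53.3% in the Col x C24 libraries, and in C24 x Col it was 26.7% and 41.7%, from 15 to 48 reads. In CNS endosperm it was 30.8% and 22.7% in xCol(C24) and 25.4% and 45.6% in Col(C24) x Col, from 63 to 68 reads. All 8 libraries were below the share from dosage. The mean share was 43.7 ± 12.5% in standard and 31.1 ± 10.2% in CNS endosperm (SD, n = 4 libraries each), against 47.3 ± 11.8% and 46.9 ± 7.8% in embryo. The log2 difference of maternal over paternal reads beyond dosage was -1.34 (adjusted p 0.441, edgeR) in standard and -2.17 (adjusted p 0.244) in CNS endosperm, and -1.78 (adjusted p 0.0257) with the 8 libraries in one fit, which called 4.77% of all genes.

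CYCB2;3, with 135 to 779 reads a library, had a maternal share of 70.3 ± 7.4% in standard and 78.3 ± 8.6% in CNS endosperm (SD, n = 4 libraries each). In embryo it was 54.5 ± 8.4% and 51.3 ± 2.1%. CYCB1;4, with at least 176 reads a library, had 67.4 ± 4.4% and 62.6 ± 10.3% in endosperm and 48.1 ± 6.2% and 52.5 ± 6.6% in embryo. The share from dosage lay within 1 SD of these means but for the B2 gene in CNS endosperm, where 1 SD did not reach it. CYCD3;1 could be read in all libraries in embryo alone, where its maternal share was 48.4 ± 2.6% and 46.3 ± 1.4%.

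CYCB1;3 showed how far replicates could part. In standard endosperm its maternal share was 75.3% and 34.7% in the Col x C24 libraries, and 54.1% and 42.7% in the reciprocal cross. In CNS endosperm it was 60.6% and 73.9% in xCol(C24) and 71.7% and 100% in Col(C24) x Col. The log2 difference beyond dosage was -0.87 (adjusted p 0.390, edgeR) in standard endosperm, and -1.51 (adjusted p 0.00032) without Col x C24 endosperm replicate 1. That fit called 14% of all genes, against 4.42% with all libraries. The exact 95% intervals of the 2 replicates lay apart for 5 of 25 pairs in standard endosperm, 12 of 27 in CNS endosperm, 4 of 31 in standard embryo and 11 of 33 in CNS embryo, over members with 10 reads in both. The share over all genes was not counted, so these counts are not read as particular to cyclins. The CNS pairs include xCol(C24), whose replicates are different crosses. Intervals cover counting error only.

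In C24(Col) x Col(C24) embryo, which is replicate 2 of the uneven group, 4 cyclins had no C24 reads, though genes around them did. CYCA3;1 had 40 Col and 0 C24 reads, CYCA3;2 had 22 and 0, CYCB3;1 had 23 and 0 and CYCD5;1 had 32 and 0. In Col x Col(C24) embryo, replicate 1, the first of these had 58 Col and 56 C24 reads. Without replicate 1 the 2 A3 genes would be called maternal in CNS embryo, at 4.24 and 4.14 (adjusted p 0.0309 and 0.0454, edgeR). That fit called 4.39% of all genes, against 0.0602% with all libraries. These shares rest on 1 library.

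**Figure D4:**
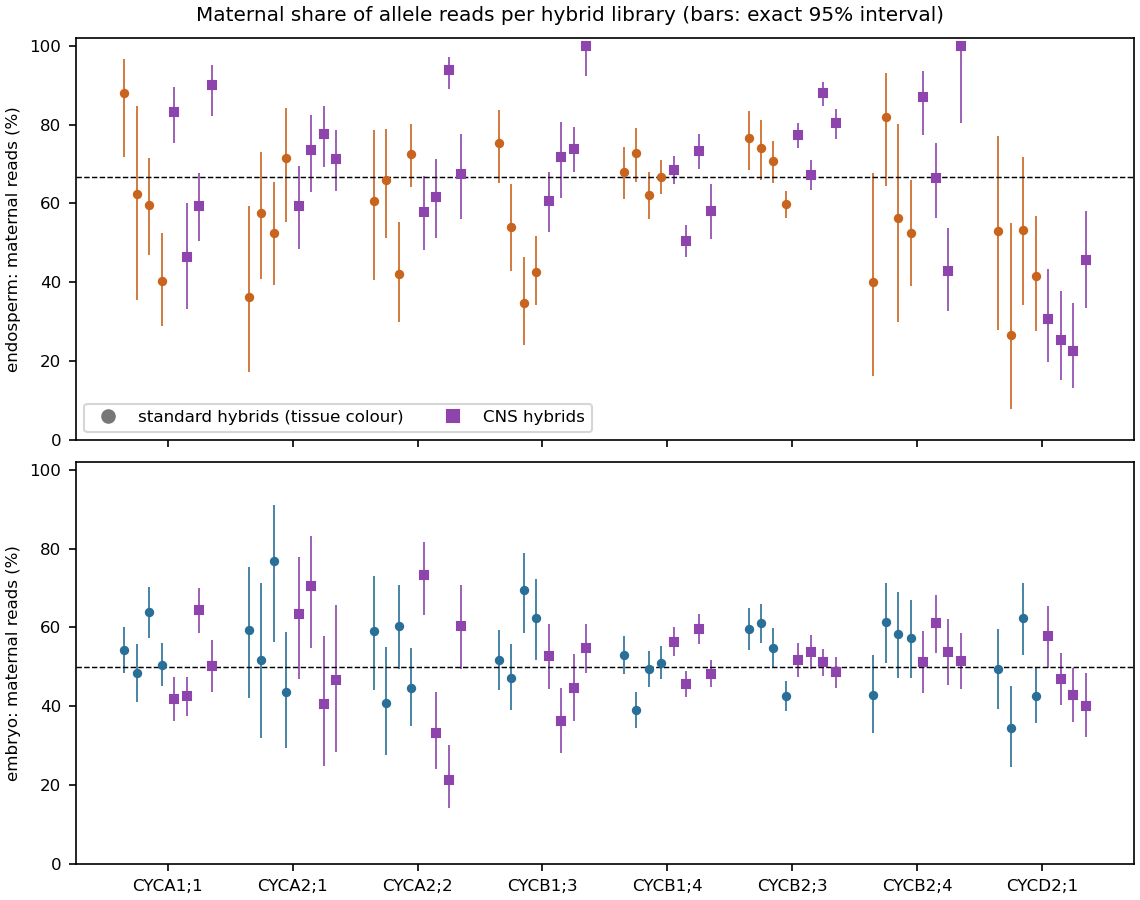
Maternal share of allele reads (percent) of the 8 cyclins with 10 or more reads in all hybrid libraries, in endosperm and embryo. Points are libraries, bars are exact 95% intervals, and the dashed lines mark the shares from dosage, 66.7% in endosperm and 50% in embryo. CYCD2;1 lies below the line in all 8 endosperm libraries.

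Some gene models limit these counts. Whether counting used strand is not stated, and AT1G15570 (the lowest A2 gene), AT1G47230 (the A3 gene that rose), AT1G34460, AT1G70210, AT5G67260 and AT4G03270 overlap a gene on the other strand, while AT4G34160 overlaps AT4G34150 on its own strand.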

How the data were processed

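RNA from laser-captured endosperm and embryo was sequenced as poly-A libraries in 32 samples. The authors deposited raw read counts per gene for each library and, for the 16 hybrid libraries, read counts per gene and allele. Per the submitters' processing notes, Trimmomatic, STAR, HTSeq and edgeR were used with TAIR10, and versions and the use of strand are not given in the sources used here. Which step split reads by allele is not given there either, and the deposited reference allele was taken as Col. Organelle allele reads in the hybrids show that the parent named first gave the cytoplasm, and that Col(C24) pairs Col cytoplasm with the nucleus of C24. Reads outside any feature, 2.28% to 17.7% of a library, stayed out of all sums.

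The quasi-likelihood test of edgeR 4.0.16 (R 4.3.3) was applied to counts after TMM scaling and a filter (filterByExpr with a minimum count of 10), and a gene was called at a Benjamini-Hochberg adjusted p under 0.05 over all genes tested. Tissues were compared within the 16 standard and within the 16 CNS libraries, and the other contrasts within 1 fit per tissue. Allele counts were fitted with the library as a block, an allele term and an offset of 2:1 in endosperm, for genes with 10 reads in each library. Levels are TMM-scaled CPM. Intervals are exact and cover counting error only. Libraries held 8.64 to 54.3 M counts, which sets the precision, and reads carry no molecular identifiers.

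Alternatives were DESeq2 1.42.0, library totals, no filter, a replicate block, a fit of the compared groups alone, 20 allele reads, both sets in one allele fit, and each library left out. Tables were made with Python 3.11.15, pandas 2.3.3 and scipy 1.17.1, and the fits were checked on simulated data. The reported gene-level fits used no pairing by replicate number, which entered only as the replicate block. Same-numbered endosperm and embryo libraries deviated together in each cross. Across genes r was 0.104 to 0.190 in the CNS lines and 0.089 to 0.256 in the standard crosses. Between compared groups of the same tissue it ran from -0.07 to 0.418. Sequences come from the TAIR10.1 genome with RefSeq annotation, and all 30 members matched it by locus. The rule for naming members with full values was those called, up to 10 with the largest log2 difference per comparison. Values are also given for further members, some of them not called, such as CYCD3;3 and CYCD4;2 in the tissue comparison. The members and lists were chosen with earlier results of these data known.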

Additional observations from a re-analysis of the deposited data

Results flagged for a closer look

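Each of 4 cyclins had library values that moved in opposite directions in the tissues under the same contrast without overlap between its 2 groups. In each case the difference between the tissues was not tested, and groups have 2 libraries. The share of all genes with such a pattern was not counted, so the 4 are not read as a result about cyclins. The xCol(C24) group, used for CYCA1;2, mixes different crosses as its replicates. CYCA2;1 averaged 8.84 CPM in selfed C24(Col) and 7.85 CPM in selfed Col(C24) endosperm, but 2.62 CPM in selfed C24(Col) and 3.32 CPM in selfed Col(C24) embryo. Under the same contrast CYCD5;1 averaged 4.86 and 3.10 CPM in C24(Col) and Col(C24) endosperm, and 5.52 and 8.89 CPM in C24(Col) and Col(C24) embryo. CYCA2;4 averaged 2.58 CPM in Col x C24 and 3.26 CPM in C24 x Col endosperm, and 53.9 CPM in Col x C24 and 49.7 CPM in C24 x Col embryo. CYCA1;2 averaged 9.81 CPM in xCol(C24) and 7.33 CPM in Col(C24) x Col endosperm, and 2.95 CPM in xCol(C24) and 4.55 CPM in Col(C24) x Col embryo.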

How the results depend on the processing

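The tissue comparison called 22 to 25 members with any 1 library left out of the standard crosses and 18 to 22 out of the CNS lines, and stayed within 1.5 times its count under every other setting. Between the selfed accessions the endosperm count of 1 became 3 with DESeq2, 3 with library totals, 6 without a filter, 4 with a replicate block and 5 in the groups alone, and 0 with a library left out. The share of all genes called moved as well, with 7.96% becoming 13.1%, 9.75%, 10.8%, 12.8%, 14.8% and 2.89% to 4.34%. In embryo the count became 4 with the block and 0 with a library left out, where 4.04% of all genes became 12.2% and 2.04% to 2.53%. Between the selfed CNS lines the endosperm count of 1 became 0 with totals, 6 without a filter, 2 with the block, 0 in the groups alone and 0 to 3 with a library left out, beside 8.08%, 11.9%, 13.4%, 2.02% and 3.3% to 10.4% of all genes. The embryo count became 3 with the block, 0 in the groups alone and 0 to 1 with a library left out, beside 12.5%, 1.57% and 2.44% to 3.41%. The CNS cross direction in endosperm went from 0 to 2 without a filter (4.45% of all genes), and the interaction of tissue and accession from 0 to 2 with DESeq2, 1 with totals and 1 with the block (4.96%, 2.33% and 3.84%). Parental calls in endosperm became 1 in the single fit of both sets together. They ran from 0 to 1 with a standard endosperm library left out and, in CNS embryo, from 0 to 2, beside 1.61% to 14% and 0% to 4.39% of all genes. The cause of these changes was not tested. Left-out fits of the difference between sets were not run. The replicate block changed no other tissue call than that of CYCD5;1. Library totals moved the median of all genes between the accessions in endosperm to -0.31, against -0.03 with TMM, and the calls over all genes from 1048 higher of 1689 to 781 higher of 2067.

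Members that changed sign had no call with the settings reported. In the standard tissue fit CYCD3;3 was 0.060 with DESeq2 and -0.13 to 0.047 with a library left out. In the CNS fit it was -0.015 with the block and -0.15 to 0.17 with a library left out. CYCD4;2 was 0.044 with DESeq2 and -0.15 to 0.070 with a library left out of the standard tissue fit, -0.084 to 0.32 in the CNS tissue fit, -0.25 to 0.20 between embryos of the accessions and -0.23 to 0.89 between embryos of the CNS lines. CYCA2;2 was -0.013 with totals and -0.030 to 0.24 with a library left out of the standard tissue fit, and -0.70 to 0.16 between CNS selfed endosperms, where CYCA3;3 was -7.08 to 2.87. CYCB2;3 was -0.064 to 0.15 in the CNS tissue fit and -0.0057 to 0.53 for parental differences in standard embryo. CYCB1;3 was -0.083 for parental differences in CNS endosperm with both sets in one fit. Endosperm depth, with totals from 8.64 M counts, limits the rarest members.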
